A study of Mus musculus with 6 samples.

Results

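The genes described here encode nucleoporins, the proteins that build the nuclear pore, and the receptors that carry cargo through it. They were taken from the deposited tables by symbol: every entry that starts with Nup and a digit, Kpna or Kpnb and a digit, Ipo and a digit, Xpo or Tnpo. The symbols matched 45 of 23850 gene entries, and 42 were kept because their mean across the 6 libraries reached 1 FPKM, 20 of them nucleoporins and 22 transport receptors. FPKM (fragments scaled to transcript length and library total) allow levels of different genes to be compared per length. The lowest entry kept was Nup62-il4i1, a read-through transcript entry at a mean of 1.39 FPKM, followed by Xpo7 at 6.16. The entries that missed the limit were Nup210l at 0.231, Nup62cl at 0.0658 and Kpna7 at 0.00784.

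A nuclear pore is a ring of repeated subunits: an outer ring made of the Y complex, an inner ring, membrane proteins that anchor it, a central channel lined with phenylalanine-glycine repeats, filaments on the cytoplasmic face and a basket on the nuclear face. Importins bind cargo in the cytoplasm and release it in the nucleus when they meet the GTPase RAN bound to GTP, whereas exportins bind cargo together with RAN-GTP and release it outside. Activated lymphocytes enlarge the nucleus and the nucleolus, and ribosomal proteins, histones, transfer RNA and ribosomal subunits all depend on these receptors.

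The libraries came from germinal centre B cells made in culture from naive follicular B cells, with C57BL/6J as the strain and wild type as the genotype. In both groups the cells had spent 4 days on CD40L-expressing feeder cells under 1 ng/ml IL-4 and were then kept for 36 h with IL-21 at 10 ng/ml on such feeders, with either the GSK3 inhibitor CHIR99021 at 3 uM (3 libraries) or DMSO, the solvent, for which the labels print the same figure of 3 uM (3 libraries). The series calls these biological triplicates and asks how GSK3 inhibition alters the expression profile. The sources used here do not say how the cells were purified from the feeders.

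Summed FPKM ran from 527290 to 617449 per library, and the Cufflinks confidence limits of the median member were 7.32% to 9.82% above and below its FPKM. The B cell markers Cd79a, Cd79b, Ms4a1 and Pax5 were present in every library, with summed levels of 2048 to 2927 FPKM in DMSO and 953 to 1231 in CHIR99021, and all 4 were called lower. The 5 germinal centre markers summed to 128 to 133.5 and 114.5 to 122.9 FPKM, with 1 called lower. Of 5 plasma cell markers, which summed to 489 to 766 FPKM in DMSO and 471 to 588 in CHIR99021, 2 were called higher: Irf4 (2.69-fold, adjusted p = 0.000431 by limma) and Prdm1 (2.58-fold, 0.00347). With the block Xbp1 was also higher and Igj lower, and Sdc1 passed in neither fit. Of 6 markers of dividing cells, which summed to 873 to 976 and 822 to 874 FPKM, 0 were called without the block, and with it Mcm2 was higher and Top2a and Pcna lower. Of 6 T cell markers none reached the limit on level, and Cd3e and Cd8b1 were listed at 0 in all libraries. Of 7 myeloid markers, which summed to 6.63 to 8.05 FPKM in DMSO and 2.48 to 7.04 in CHIR99021, Cd14 was listed at 0 throughout. Among the 2 that reached the limit on level, Itgam was called lower (3.77-fold, adjusted p = 0.00264 by limma) and Lyz2 passed in neither fit. The 6 fibroblast-like feeder markers, led by Col1a1, summed to 289, 103 and 71.6 FPKM in DMSO replicates 1, 2 and 3 and to 222, 87.02 and 51.6 in CHIR99021 replicates 1, 2 and 3. The summed feeder markers thus went with the replicate number, with replicate 1 highest in both groups. They also went with the treatment: all 4 tested feeder markers were lower with CHIR99021 in all 3 replicate numbers. Thy1 was called lower (2.57-fold, adjusted p = 0.0278 by limma), and with the block Col3a1 and Col1a2 were too (0.00629 and 0.00479). Thy1 did not go with the collagen genes across replicate numbers. It had 11.02, 9.01 and 20.6 FPKM in DMSO and 4.21, 4.58 and 6.97 in CHIR99021, highest in replicate 3. Col1a1, Col1a2 and Col3a1 were highest in replicate 1 of both groups. Col1a1 passed in neither fit. Replicate 1 held the lowest value of its group for 37 of 42 members in DMSO and 33 of 42 in CHIR99021. This was not counted over all tested genes, so it cannot be called particular to the members. The part of feeder RNA, or of what the plasma cell and dividing cell markers track, in the members' levels was not tested. In bulk RNA, fewer cells of a type and less RNA per cell cannot be told apart.

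With CHIR99021, 5 of the 42 members rose and 0 fell (14 were higher and 0 lower by limma at an unadjusted p under 0.05). These were the pore membrane protein gene Nup210, the Y complex gene Nup37, the import receptor genes Ipo7 and Ipo5, and the transfer RNA exportin gene Xpot. The share called higher, 11.9%, was near the 8.13% of all 10096 tested genes called higher by the same limma test (13.3% were called lower). Of all genes called, 37.9% were thus higher, a split that was 48.7% with upper-quartile and 51.2% with quantile scaling, where 11 and 10 members were called higher and 0 lower. With these scalings 1115 and 1232 of all 10096 tested genes were called higher, and 1174 lower with each. Same-numbered libraries deviated together from their group means, and with the replicate number as a block 19 members were called higher (45.2%, against 18.4% of all tested genes) and again 0 lower (against 24.4%). The log2 change was positive for 36 of 42 members, against 45.2% of all tested genes. The median log2 change was 0.26 over the 20 nucleoporins and 0.11 over the 22 transport receptors, against -0.04 over all tested genes. The groups did not overlap for 14 members, all higher in CHIR99021 (33.3%, against 17.0% of all tested genes, while 23.1% were lower without overlap).

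**Figure D1:**
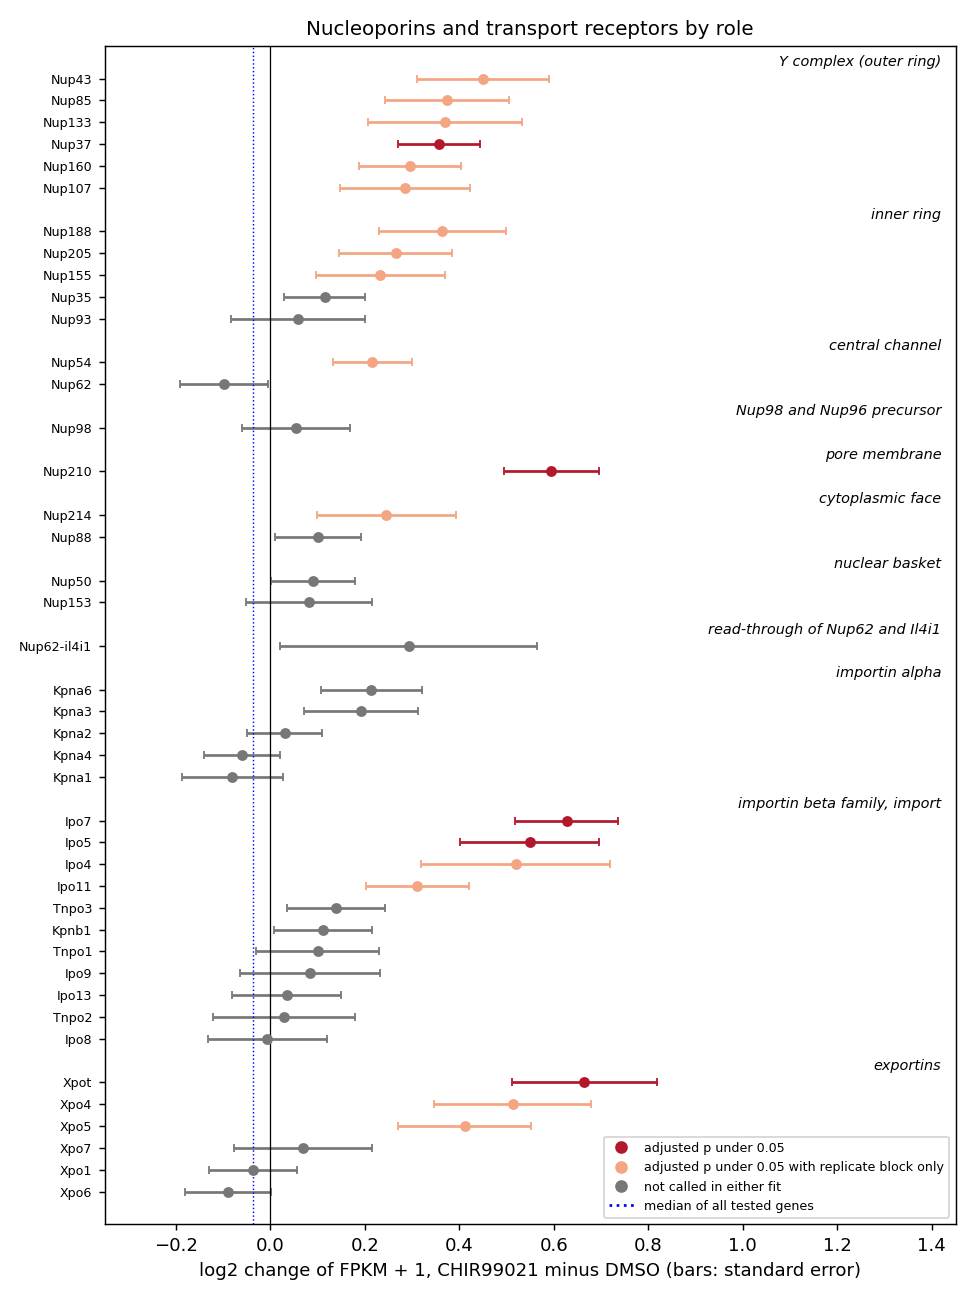
Log2 change of FPKM + 1 (CHIR99021 minus DMSO, x axis) for the 42 members, grouped by role, with the standard error from limma as bars; dark red marks the 5 members called without the replicate block, light red those called with it only and grey those called in neither fit. The 6 genes drawn as Y complex lie to the right of 0, whereas importin alpha genes lie on both sides of it.

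Of the 5 calls without the block, 3 depended on single libraries. Just 2 members were called when DMSO replicate 1 was left out, and the same number without replicate 2 or 3 of CHIR99021, while 3 were called without DMSO replicate 3. In these fits, in the order given, 511, 439, 328 and 506 of all 10096 tested genes were called higher, against 821 with all libraries. Ipo7 and Nup210 were called whichever library was left out. The block fit, repeated after the data were seen without both libraries of replicate 1, 2 or 3, called 11, 16 and 12 members higher, and the 5 members were among them each time. Over all 10096 tested genes the same block fits called 1354, 1341 and 1105 higher.

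Nup210 encodes the pore membrane glycoprotein gp210, which anchors the pore in the nuclear envelope and varies between cell types more than most pore subunits. Its level was 49.4, 56.8 and 61.7 FPKM in DMSO replicates 1 to 3 and 79.9, 84.6 and 89.9 in CHIR99021 replicates 1 to 3. All 3 treated libraries lay above all 3 controls, and the means were 55.97 ± 6.17 and 84.8 ± 4.98 FPKM (SD, n = 3 per group), 1.51-fold apart. Nup210 (chromosome 6, 91013067 to 91116826, mm10) had a log2 change of 0.59 ± 0.10 (SE), on log2(FPKM + 1) values, with an adjusted p of 0.0062 by limma, and was higher in 3 of 3 replicate numbers. It was the largest rise among the nucleoporins in the fit without the block.

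The Y complex is the scaffold of the outer rings. For 6 of its genes with a symbol of their own under the rule, log2 changes were positive, from 0.29 to 0.45, and each gene was higher in CHIR99021 in every replicate number. Of its other subunits, Sec13 was also higher in every replicate number, with a smaller log2 change of 0.24. Seh1l had a log2 change of 0.14 and was almost level in replicate 3 (0.0027). NUP96 is made from Nup98, which had a log2 change of 0.05 and was lower with CHIR99021 in replicate 3 (-0.05). Seh1l, outside the symbol rule, had 18.2 ± 2.39 and 20.05 ± 0.854 FPKM and passed in neither fit (adjusted p = 0.413, or 0.175 with the block). Sec13, also a coat protein of vesicles, had 99.3 ± 8.71 and 117 ± 3.65 FPKM and passed with the block alone (0.0861, or 0.0138). Ahctf1, a further pore subunit outside the symbol rule, was lower in 3 of 3 replicate numbers (log2 change -0.08) and passed in neither fit. Without the block only Nup37 was called (16.7% of the 6, against 8.13% of all tested genes called higher). Nup37 (chromosome 10, 88146992 to 88178395) had 27.1, 25.9 and 30.1 FPKM in DMSO and 35.3, 36.9 and 34.8 in CHIR99021, with no overlap (1.29-fold, log2 change 0.36 ± 0.09 SE, adjusted p = 0.025 by limma). That call was lost without DMSO replicate 1 (adjusted p = 0.0672) or 2 (0.0555), and without CHIR99021 replicate 1 (0.0624), 2 (0.0818) or 3 (0.0781). With the block all 6 were called higher (against 18.4% of all tested genes), with adjusted p from 0.00194 to 0.0148. However, Nup107 and Nup160 lost the call when replicate 1 was left out of that fit (0.0502 and 0.0616) and when replicate 3 was (0.0522 and 0.083). The smallest adjusted p with the block belonged to Nup43, at 14.96, 19.2 and 19.6 FPKM in DMSO and 21.1, 26.2 and 27.3 in CHIR99021. Its adjusted p was 0.057 without the block and 0.00194 with it. Nup85 was the most abundant of the Y complex, at 66.3, 86.1 and 70.9 FPKM in DMSO and 83.97, 109.05 and 97.02 in CHIR99021, where the groups overlapped but each pair differed by 0.34 to 0.45 on the log2 scale. Its adjusted p was 0.0811, or 0.00242 with the block. For Nup133, Nup160 and Nup107 it was 0.148, 0.0908 and 0.18, or 0.00791, 0.0148 and 0.0094 with the block.

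In the inner ring, which links the outer rings to the membrane and the channel, 0 of 5 members were called without the block. With it 3 were called higher: Nup188 (21.6 ± 3.12 to 28.04 ± 3.49 FPKM, adjusted p = 0.0938, or 0.00934 with the block), Nup205 (30.2 ± 3.39 and 36.5 ± 4.1; 0.155, or 0.0114) and Nup155 (10.6 ± 1.46 and 12.6 ± 1.58; 0.269, or 0.0464). Nup93, the hub of this ring, had 28.04 ± 3.71 and 29.3 ± 4.54 FPKM and Nup35 16.3 ± 0.34 and 17.8 ± 0.821, and neither passed in either fit. The 3 calls with the block fell to 0 when replicate 1 was left out (0.0547 for Nup188, 0.0501 for Nup205, 0.125 for Nup155). Nup205 also lost its call without replicate 3 (0.0566), and Nup155 without replicate 2 (0.0967) or 3 (0.191).

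In the channel and the nuclear basket no member was called without the block. Nup62, the main channel protein with phenylalanine-glycine repeats and the most abundant nucleoporin transcript by the mean of all 6 libraries (in CHIR99021 Nup85 was higher), had 86.3, 95.1 and 96.9 FPKM in DMSO and 82.3, 95.8 and 82.1 in CHIR99021, so the groups overlapped. Its log2 change was -0.10 ± 0.09 (SE), the sole negative value among the 20 nucleoporins (adjusted p = 0.505, or 0.264 with the block). Its partner Nup54 had 21.2 ± 1.11 and 24.7 ± 0.741 FPKM, without overlap, and was called with the block alone (adjusted p = 0.108, or 0.033), a call lost without replicate 1 (0.0852), 2 (0.131) or 3 (0.108). Nup98, whose precursor is cut into the mobile nucleoporin NUP98 and the Y complex protein NUP96, had 16.8, 18.1 and 20.1 FPKM in DMSO and 16.8, 21.1 and 19.3 in CHIR99021 (log2 change 0.05 ± 0.11 SE, adjusted p = 0.789). Nup153, which anchors the basket, had 16.3, 20.3 and 17.4 FPKM against 17.1, 22.6 and 17.8 (0.08 ± 0.13 SE, adjusted p = 0.72). Nup50, a basket protein that helps to release cargo from importin alpha, had 31.4 ± 2.22 and 33.4 ± 1.79 FPKM. On the cytoplasmic face, Nup214 was called with the block alone (15.2 ± 1.95 and 18.3 ± 3.26 FPKM, adjusted p = 0.278, or 0.0313), a call lost without replicate 1 (0.09), 2 (0.159) or 3 (0.0757). Its partner Nup88 passed in neither fit (65.4 ± 4.76 and 70.3 ± 4.99).

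The entry Nup62-il4i1 spans Nup62 and the downstream gene Il4i1 on chromosome 7 (44816370 to 44840803), and its reads cannot be cleanly told from theirs. It had 0.457, 2.11 and 1.04 FPKM in DMSO and 1.69, 1.43 and 1.6 in CHIR99021 (adjusted p = 0.495). Il4i1 itself had means of 163 and 26.7 FPKM, and passed the test (adjusted p = 5.21e-05).

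**Figure D2:**
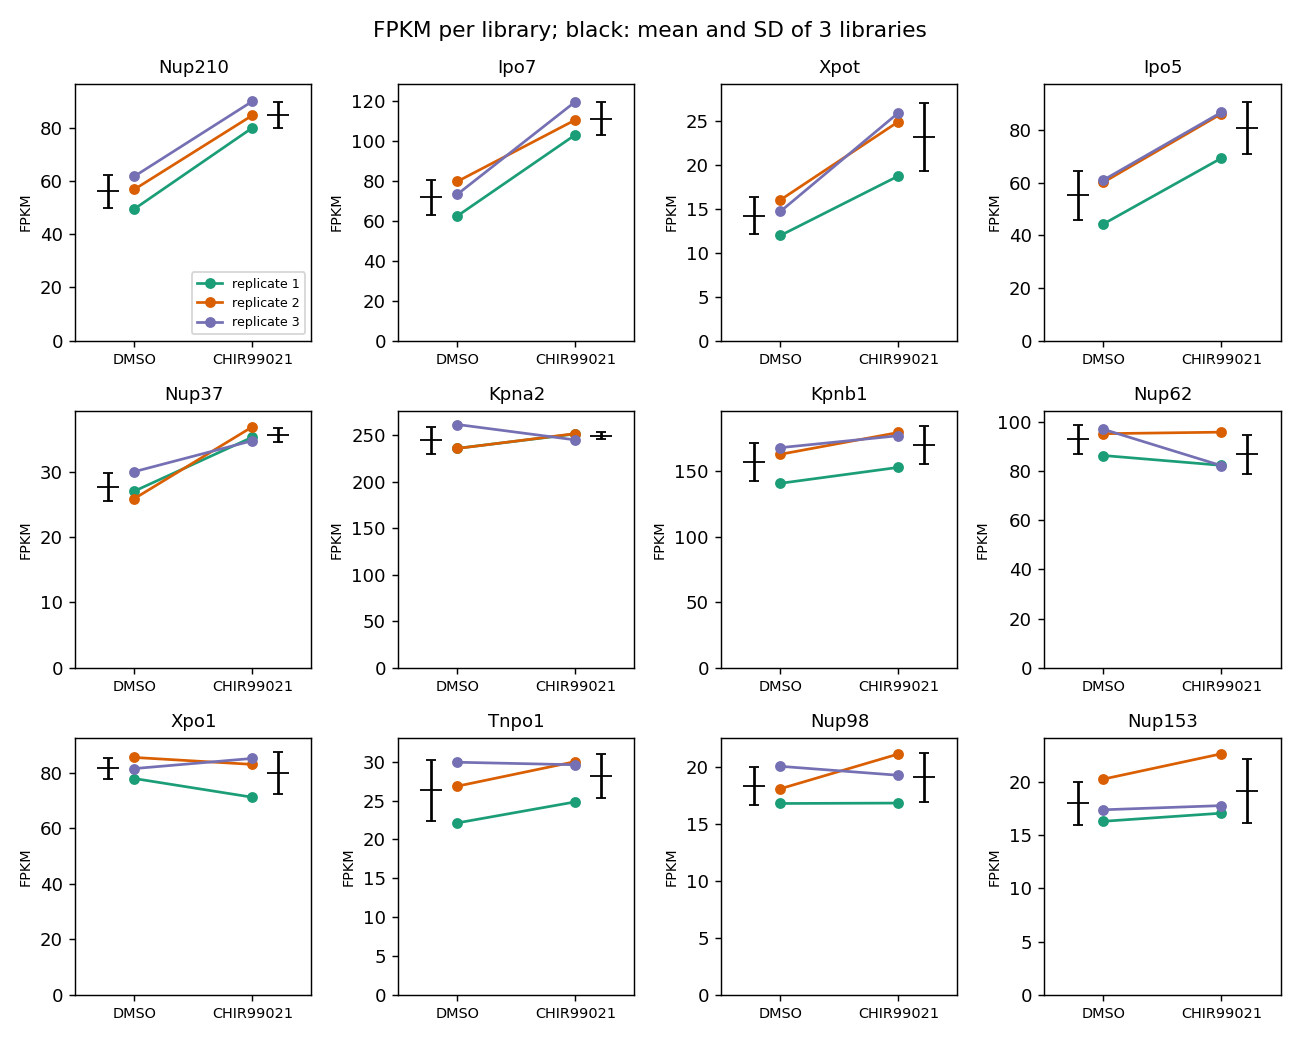
FPKM in each library (y axis from 0) for the 5 members called higher and for 7 further members fixed for description; coloured lines join libraries of the same replicate number, and black marks give the mean and SD of 3 libraries. In the first 5 panels every line climbs and the groups do not overlap, whereas Kpna2, Nup62, Xpo1, Tnpo1 and Nup98 have lines of both slopes.

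Among the import receptors, importin alpha genes encode the adaptors that read the classical nuclear localization signal, and 0 of 5 were called in either fit. Kpna2 was the most abundant transcript of all 42 members. Its level was 236, 236 and 261 FPKM in DMSO and 251, 252 and 245 in CHIR99021, with means of 244 ± 14.8 and 249 ± 3.82 (log2 change 0.03 ± 0.08 SE, adjusted p = 0.833). Kpna4 and Kpna1 had negative log2 changes (-0.06 and -0.08) and Kpna3 and Kpna6 positive ones (0.19 and 0.21), with adjusted p from 0.195 upwards, or 0.0612 upwards with the block. Kpna2 made up 78.3% ± 1.14 of the summed importin alpha FPKM in DMSO and 77.8% ± 0.976 in CHIR99021 (SD, n = 3).

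The importin beta family holds the receptors that touch the pore. Its founding member Kpnb1, which carries importin alpha with its cargo, had 141, 163 and 168 FPKM in DMSO and 153, 179 and 177 in CHIR99021, with overlapping groups (log2 change 0.11 ± 0.10 SE, adjusted p = 0.494, or 0.114 with the block). Ipo7, which imports ribosomal proteins and, paired with KPNB1, linker histones, had 62.5, 79.7 and 73.3 FPKM in DMSO and 103, 110.6 and 119.8 in CHIR99021. Every treated library exceeded every control, and the means of 71.8 ± 8.73 and 111 ± 8.31 were 1.55-fold apart. Ipo7 (chromosome 7, 110018425 to 110055114) had a log2 change of 0.63 ± 0.11 (SE) and was higher in 3 of 3 replicate numbers (adjusted p = 0.0068 by limma). A small nucleolar RNA, Snora23, lies within its span on the same strand at 17.6 and 8 FPKM, and it was not called (adjusted p = 0.152).

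Ipo5, an importer of ribosomal proteins and core histones, had 44.4, 60.2 and 61.1 FPKM in DMSO and 69.4, 86.3 and 86.9 in CHIR99021. The groups did not overlap, and within each replicate number the difference was 0.50 to 0.63 on the log2 scale. Ipo5 (chromosome 14, 120911194 to 120948044) rose 1.46-fold (log2 change 0.55 ± 0.15 SE, adjusted p = 0.0347 by limma). The call was lost without DMSO replicate 1 (adjusted p = 0.0684) or 3 (0.055), without CHIR99021 replicate 2 (0.103) or 3 (0.131), and without the limit on level (0.0734), while the block gave 0.000642. Ipo4, a further carrier of histones, had 9.8, 15.6 and 14.7 FPKM against 15.98, 23.95 and 18.5. Ipo11 had 10.4 ± 0.92 and 13.2 ± 1.02. These 2 were called higher with the block only (adjusted p = 0.104 and 0.0828, or 0.00395 and 0.013 with it), and their groups did not overlap. In the block fit Ipo11 lost its call without replicate 1 (0.0569), 2 (0.0591) or 3 (0.0636), whereas Ipo4 passed each time.

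The other 7 genes of the family passed in neither fit. Tnpo1, the receptor for hnRNP proteins, had 22.1, 26.9 and 29.9 FPKM in DMSO and 24.8, 30.03 and 29.6 in CHIR99021 (log2 change 0.10 ± 0.13 SE, adjusted p = 0.645). Tnpo3, which imports serine-arginine rich splicing factors, had 29.1 ± 1.87 and 32.2 ± 3.43 FPKM. Ipo9, Ipo13, Ipo8 and Tnpo2 had group means between 8.45 and 16.8 FPKM, with log2 changes from -0.01 to 0.08. The summed FPKM of the 11 genes was 362, 446 and 437 in DMSO and 457, 539 and 528 in CHIR99021. Within that sum the share of Ipo7 was 16.8% to 17.9% in DMSO and 20.5% to 22.7% in CHIR99021. The share of Ipo5 was 12.3% to 13.98% and 15.2% to 16.5%, and that of Kpnb1 was 36.5% to 38.9% and 33.3% to 33.5%. None of these 3 shares overlapped between groups, and the shares of a sum are not independent of each other. The shares of Tnpo3, Tnpo1, Ipo13 and Ipo8 did not overlap either, each being lower in CHIR99021.

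Exportins were called for 1 of 6 members without the block and for 3 with it. Xpot, the exportin for transfer RNA, had 11.96, 16.02 and 14.7 FPKM in DMSO and 18.7, 24.9 and 25.9 in CHIR99021. The groups did not overlap, and at 1.63-fold this was the largest ratio of means among the 42 members. Xpot (chromosome 10, 121587380 to 121626316) had a log2 change of 0.66 ± 0.15 (SE), with an adjusted p of 0.0207 by limma (0.000694 with the block). Without DMSO replicate 1 or 3 the adjusted p was 0.0549 and 0.0592, and without CHIR99021 replicate 2 or 3 it was 0.0701 and 0.0906.

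Xpo4, which exports the translation factor EIF5A, and Xpo5, which exports microRNA precursors, were called with the block alone. Xpo4 had 5.9, 8.91 and 8.25 FPKM in DMSO and 9.6, 12.1 and 12.2 in CHIR99021 (adjusted p = 0.0641, or 0.00328 with the block). Xpo5 had 11.6, 16.1 and 15.8 FPKM against 17.7, 21.02 and 19.5 (adjusted p = 0.0748, or 0.00739). For both genes the groups did not overlap. Xpo1, the general exportin CRM1 for proteins with a leucine-rich signal and for ribosomal subunits, was the most abundant exportin. Its level was 77.9, 85.5 and 81.5 FPKM in DMSO and 71.2, 83.03 and 85.2 in CHIR99021 (log2 change -0.04 ± 0.09 SE, adjusted p = 0.829, or 0.662 with the block), and the sign was positive with upper-quartile scaling. Xpo6, which exports actin with profilin, had 53.8 ± 2.92 and 50.5 ± 4.1 FPKM and was lower in 3 of 3 replicate numbers without passing (adjusted p = 0.537, or 0.241). Xpo7 had 6 ± 1.02 and 6.31 ± 0.553 FPKM. Of the summed exportin FPKM, Xpot held 7.36% to 8.48% in DMSO and 11.1% to 12.8% in CHIR99021, and Xpo1 44.8% to 47.9% and 41.3% to 42.2%.

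**Figure D3:**
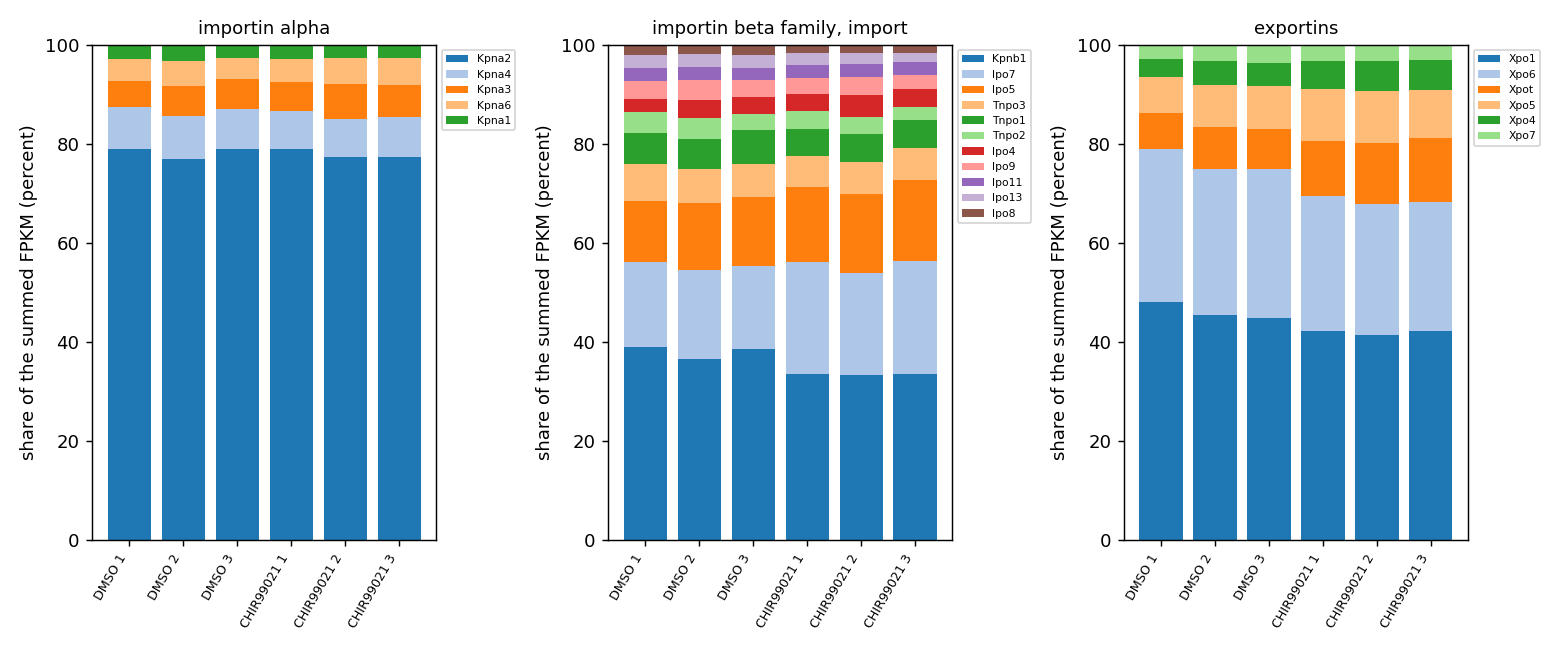
Share of the summed FPKM (percent, y axis from 0) that each gene holds within the importin alpha genes, the importin beta family of import receptors and the exportins, with 1 bar per library. Kpna2 holds a like share in all 6 bars, whereas the bands of Ipo7, Ipo5, Xpot, Xpo5 and Xpo4 are wider in every CHIR99021 bar than in any DMSO bar.

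Within replicate numbers, 29 of 42 members were higher in CHIR99021 in all 3 (69.0%, against 29.3% of all tested genes) and 2, Kpna4 and Xpo6, were lower in all 3 (against 37.2%). For nucleoporins this was 17 of 20 and 0. The median nucleoporin differed by 0.25, 0.24 and 0.20 on the log2 scale in replicates 1, 2 and 3, and the median transport receptor by 0.16, 0.13 and 0.06. The same medians over all tested genes were -0.05, -0.02 and -0.05. The summed FPKM of the 20 nucleoporins was 544, 640.2 and 618 in DMSO and 645, 763 and 714 in CHIR99021.

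**Figure D4:**
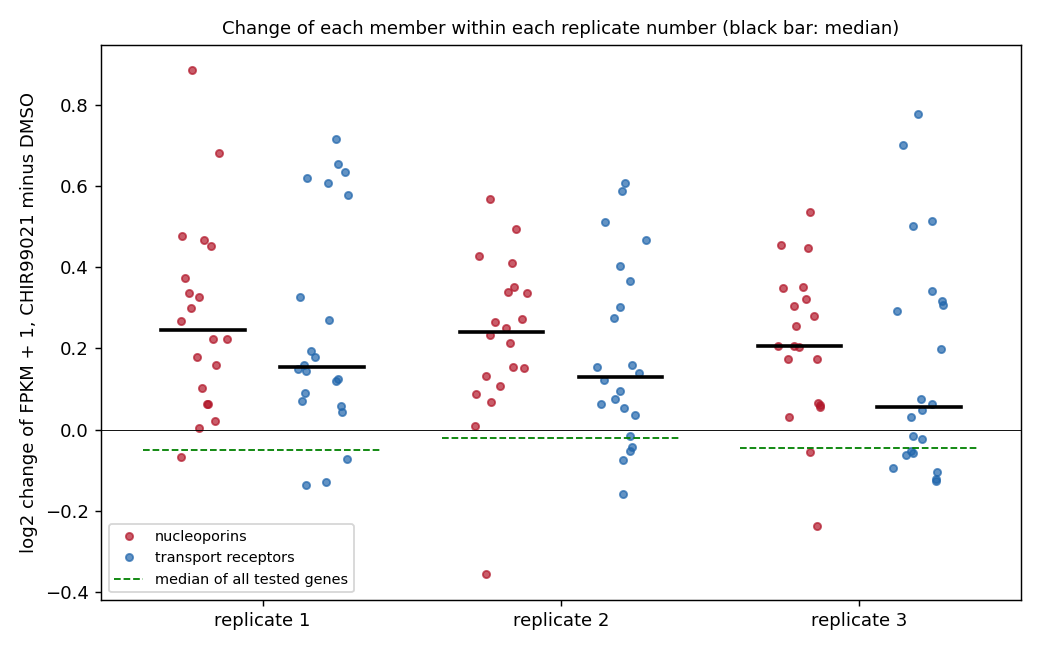
Log2 change of FPKM + 1 between the CHIR99021 and the DMSO library of the same replicate number (y axis) for each of the 20 nucleoporins (red) and 22 transport receptors (blue), with class medians as black bars and the median of all tested genes as a dashed line. Both class medians lie above the dashed line in all 3 replicate numbers.

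Because several members were higher together, their promoters (250 bases before to 50 after the start, RefSeq, GRCm38.p6) were searched on both strands for CACGTG, the E-box read by MYC and related factors, and for 4 other motifs. A promoter was listed for 33 of the 42 members, and a gene counted if any of its listed promoters matched. CACGTG was found for 7 of 33 members (21.2%), against 12.5% of the tested genes with a promoter and 8.09% of all genes in that table. The shares were 12.1% of members and 13.7% of tested genes for the TCF/LEF core CTTTGA, and 12.1% and 2.71% for the NRF1 motif (GCGCA followed directly by TGCGC). They were 12.1% and 10.4% for the ETS motif CCGGAAGT, and 54.5% and 43.7% for CCAAT. A match is a description of letters and not a site of binding. Of the 5 called members, CACGTG was found upstream of Ipo7 and Xpot and not in these windows of Nup210, Nup37 and Ipo5. Shown are the stretches of those 2, then that of Nup188, the inner ring gene with the motif at 2 places, and that of Nup93, an inner ring gene with the motif that passed in neither fit. The other 3 members with the motif were Ipo4 and Nup54, called with the block only, and Tnpo2, which passed in neither fit. Tnpo2 also had the motif at 2 places. The motif is in capitals, and each stretch reads 5′ to 3′ on the strand of the gene.
Ipo7, chr7:110018121-110018240, plus strand: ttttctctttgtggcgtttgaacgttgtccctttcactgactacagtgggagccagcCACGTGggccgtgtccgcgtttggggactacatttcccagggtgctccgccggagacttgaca
Xpot, chr10:121626463-121626582, minus strand: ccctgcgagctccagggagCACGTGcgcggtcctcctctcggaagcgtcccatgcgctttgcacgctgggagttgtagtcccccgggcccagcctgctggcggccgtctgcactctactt
Nup188, chr2:30286293-30286412, plus strand: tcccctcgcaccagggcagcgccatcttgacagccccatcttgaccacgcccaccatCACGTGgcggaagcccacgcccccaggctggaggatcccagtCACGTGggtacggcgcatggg
Nup93, chr8:94214332-94214451, plus strand: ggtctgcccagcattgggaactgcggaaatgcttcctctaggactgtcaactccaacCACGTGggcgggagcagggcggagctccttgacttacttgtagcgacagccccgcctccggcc

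The motif was present both in genes that rose and in 2 genes that passed in neither fit. Myc itself had 37.1 ± 7.82 and 38.05 ± 4.85 FPKM in DMSO and CHIR99021. It passed in neither fit (adjusted p = 0.877 by limma, or 0.789 with the block). Its log2 change was -0.28, 0.39 and 0.03 in replicates 1, 2 and 3. These are RNA levels, and the activity of MYC was not measured. Whether MYC or the motif had a part in the changes was not tested.

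Other genes of nuclear transport, listed by role, gave 6 higher and 0 lower of 47 tested (12.8% higher, against 8.13% of all tested genes; 2 were lower at an unadjusted p under 0.05), or 14 higher and 2 lower with the block (29.8% higher, against 18.4%). The RAN cycle sets the direction of transport. Of its 7 genes 2 rose (28.6%, against 8.13% of all tested genes), or 3 with the block (42.9%, against 18.4%). Rangrf, which encodes the RAN-binding protein MOG1, had 16.1, 19.01 and 20.6 FPKM in DMSO and 35.8, 40.5 and 46.8 in CHIR99021, and its log2 change of 1.10 ± 0.13 (SE) exceeded that of every member (adjusted p = 0.00153 by limma). Ranbp1, a cofactor of GTP hydrolysis by RAN, had 148, 161 and 148 FPKM against 189, 195 and 192 (adjusted p = 0.0183). That call was lost without DMSO replicate 1 (0.0575) or 3 (0.0656) and without CHIR99021 replicate 2 (0.0616) or 3 (0.076). Ran, the most abundant transcript of the lists, had 403, 406 and 431 FPKM against 434, 463 and 470.1, without overlap and without passing (log2 change 0.14 ± 0.08 SE, adjusted p = 0.273, or 0.0555 with the block). Rcc1, the exchange factor that loads RAN with GTP, was named after its values were seen (39.6 and 51.8 FPKM, with an adjusted p of 0.0716, or 0.00359 in the blocked fit).

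Among 12 pore subunits under other symbols, 2 rose (16.7%, against 8.13% of all tested genes), or 5 with the block (41.7%, against 18.4%). In a list this short, 1 gene moves the share widely. Nupl1, which encodes the channel protein NUP58, had 17.1, 17.99 and 18.3 FPKM in DMSO and 23.01, 25.97 and 24.2 in CHIR99021 (adjusted p = 0.0123, or 0.0533 without CHIR99021 replicate 3). Aaas, which encodes the pore protein ALADIN, had 44.7, 42.5 and 37.6 FPKM in DMSO and 50.5, 60.3 and 56.4 in CHIR99021 (adjusted p = 0.0263), a call lost without DMSO replicate 3 (0.085) and without CHIR99021 replicate 2 (0.0859) or 3 (0.0981). Among 6 tested other receptors and adaptors 1 rose (16.7%, against 8.13% of all tested genes). This was Heatr3, an adaptor for ribosomal proteins of the large subunit, at 18.2, 21.1 and 19.2 FPKM in DMSO and 25.9, 29.3 and 27.4 in CHIR99021 (adjusted p = 0.011). Cse1l, the exportin that returns importin alpha to the cytoplasm, had 62.3, 72.7 and 73.3 FPKM against 62.6, 75.4 and 77.05 (adjusted p = 0.828). Of 22 mRNA export genes, 1 rose (4.55%), with a list median of -0.03. It was Nxt1, the partner of the export receptor NXF1 (38.2, 35.9 and 36.98 FPKM against 52.5, 44.2 and 48.8, adjusted p = 0.0216), a call lost without DMSO replicate 3 (0.0669) and without CHIR99021 replicate 1 (0.0677) or 3 (0.0841). Thoc6 and Poldip3, named after their values were seen, were the 2 genes called lower with the block (27.2 ± 2.08 and 21.5 ± 1.71 FPKM for Thoc6, 34.2 ± 2.2 and 29.1 ± 1.41 for Poldip3), and neither passed without it (adjusted p = 0.0509 and 0.105).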

How the data were processed

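Per the submitters' processing notes, the authors used cutadapt 1.12, TopHat2 2.1.1 and Cufflinks 2.2.1 with the mouse build mm10. The authors deposited 1 table per library with gene FPKM and confidence limits, per the file headers. The sources used here do not give the annotation, the strand setting or the library totals, so counts and depth are unknown. Log2(FPKM + 1) values of the 10096 entries with a mean of 1 FPKM or more were compared between CHIR99021 and DMSO in R 4.3.3 by limma 3.58.1 (eBayes with trend), two-sided, with Benjamini-Hochberg adjustment over all 10096 and a threshold of 0.05. The fit without the block was tested on simulated data with independent noise in each library. The block fit, and noise shared by same-numbered libraries, were not simulated. The pseudocount of 1 understates changes of low genes, and folds are ratios of mean FPKM. Starts were converted to count from 1. Python 3.11.15, pandas 2.3.3, numpy 2.4.6 and matplotlib 3.10.9 handled tables and figures.

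Replicate numbers come from the titles, which do not say what they mark. Deviations from the group mean correlated at 0.535, 0.49 and 0.517 for same-numbered libraries and at -0.352 to -0.14 for others, so the numbers were taken to pair the libraries. Since deviations cancel within each group, positive values for same-numbered libraries bring negative ones for the others, which are no separate evidence. The labels do not say whether the triplicates came from separate mice.

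The members and gene lists were chosen with earlier results of these data known, and no list was tested as such. One marker of the B cell list is not reported here. Named with per-library values were the members that passed without the block and Xpo1, Kpnb1, Kpna2, Tnpo1, Nup62, Nup98, Nup153 and Nup210. So were up to 4 passing genes of each list of other transport genes, Ran and Cse1l. Other genes and the motifs searched were chosen after values were seen. Alternatives were the replicate block, pseudocounts of 0.1 and 5, no limit or a limit of 5 FPKM on the mean, upper-quartile and quantile scaling, and each library left out. The block with quantile scaling and the block without each replicate number were added after seeing the data.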

Additional observations from a re-analysis of the deposited data

How the results depend on the processing

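No member was called lower in any setting tried, and the counts of those called higher depended on the fit. So did the calls over all tested genes, from 328 higher without CHIR99021 replicate 3 to 2382 with the block and quantile scaling. With the replicate block, 12 nucleoporins, 7 transport receptors and 14 other nuclear transport genes were called higher, with 2 of the last group lower, against 2, 3, 6 and 0 without it. Upper-quartile scaling gave 5, 6 and 10 higher and quantile scaling 4, 6 and 10, while the block with quantile scaling, added after seeing the data, gave 12, 10 and 19 higher and 1 other gene lower. A limit of 5 FPKM left 1 other transport gene called lower. The block without replicate 1, 2 or 3, also added later, called 5, 10 and 6 nucleoporins, 6 transport receptors each time and, without replicate 2, 10 other genes higher and 1 lower (without replicate 3, 1 lower).

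With each library left out in turn, 1 to 2 nucleoporins, 1 to 3 transport receptors and 2 to 7 other genes were called higher. The median log2 change then ran from 0.16 to 0.34 for nucleoporins and from 0.02 to 0.18 for transport receptors, the lowest without DMSO replicate 1. For nucleoporins it was 0.19 with a pseudocount of 5, 0.31 with upper-quartile scaling and 0.32 with quantile scaling, with or without the block, and for transport receptors 0.16 with upper-quartile scaling.

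Signs turned for 6 of the genes named with values in each library, none of which passed the test in any setting. With single libraries left out, the log2 change ran from -0.032 to 0.136 for Cse1l, from -0.0384 to 0.166 for Nup153, from -0.0193 to 0.137 for Nup98, from -0.0147 to 0.195 for Tnpo1 and from -0.0849 to 0.0429 for Xpo1. For Xpo1 it was 0.0193 with upper-quartile scaling and 0.0101 with the block without replicate 1. With the block it was -0.026 for Nup98 without replicate 2, and for Kpna2 -2.45e-05 without replicate 1 and -0.0015 without replicate 2. The 34 genes whose own values were followed through the settings included every member called higher with the block. Among them the block alone added 14 calls, a number set by that choice, and ended none. The cause of these differences was not tested. The depth behind each FPKM is unknown, so no counting error is given.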
